A study of Homo sapiens with 6 samples.

Results

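Transcript levels of NF-κB subunits and of genes in their feedback loops were compared in MDA-MB-436 cells with and without induction of a MUC1 shRNA. The 10 genes were set by name, with earlier results of these libraries known, and comprise the 5 subunit genes (NFKB1, NFKB2, RELA, RELB and REL), 2 inhibitor genes (NFKBIA and NFKBIE) and 3 feedback target genes (TNFAIP3, BIRC3 and TRAF1). All 10 were among the 37887 gene symbols counted and among the 15355 that passed a filter on low counts, so none of them was lost to that filter. MDA-MB-436 is an established triple-negative breast cancer (TNBC) cell line with mutant BRCA1. A puromycin-selected pool of these cells carried a doxycycline-inducible lentiviral MUC1 shRNA (tet-MUC1shRNA), and both groups carried it. The 3 control libraries came from cells given 0.1% DMSO (vehicle), and the 3 shMUC1 libraries came from cells given doxycycline (DOX) at 500 ng/ml. The treatment time of this line was not given in the sources used here. Effects of DOX and of MUC1 silencing cannot be told apart, since no DOX-treated cells with another shRNA were analysed here. For the same reason, effects of this shRNA on transcripts other than MUC1 cannot be told apart from those of MUC1 silencing. The sample titles name the controls as control shRNA, whereas the treatment labels name vehicle, and the treatment labels were followed.

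NF-κB proteins bind DNA as dimers of Rel family subunits. In resting cells, inhibitors of the IκB family, which include the NFKBIA and NFKBIE products, hold the dimers in the cytoplasm until IκB kinase marks the inhibitors for degradation. The canonical arm acts mainly through RELA, REL and the p50 product of NFKB1. The non-canonical arm depends on the kinase NIK (MAP3K14), which drives processing of the NFKB2 product to p52, the partner of RELB. The dimers switch on genes for their own inhibitors and for regulators of upstream signaling, including the ubiquitin-editing enzyme A20 (TNFAIP3), the ubiquitin ligase cIAP2 (BIRC3) and the adaptor TRAF1. In TNBC, the pathway is known for its links to inflammatory cytokines and cell survival.

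Promoter sequence was examined first, since dimers of this family bind a shared 10-base element. Of the 10 genes, 8 matched a RefSeq promoter window (GRCh38.p14), which covers 250 bases before the transcription start to 50 bases after it. RELB and NFKBIE were not matched. On both strands, the κB consensus (GGG, a purine, 2 unspecified bases, 2 pyrimidines and CC) was found in 6 of these 8 genes, compared with 13.3% of 27305 genes with a window. Counted by window, since a gene can have several, it was in 7 of 14, compared with 11.3% of 35116. A stricter form, in which the purine is A and the second unspecified base and both pyrimidines are T, was in 5 of the 8 genes (62.5%) and in 0.678% of all genes. The list holds genes that NF-κB is known to regulate, so this share describes how the list was drawn. RELA and TRAF1 held no match in their windows. The 250 bases before the start are printed for 2 genes that fell with shMUC1 (NFKBIA and BIRC3) and 2 that rose (TNFAIP3 and REL), to show the same element upstream of genes that moved in opposite directions. Each sequence runs 5′ to 3′ on the strand of its gene, and capitals mark the κB matches on either strand, which overlap in REL.
NFKBIA: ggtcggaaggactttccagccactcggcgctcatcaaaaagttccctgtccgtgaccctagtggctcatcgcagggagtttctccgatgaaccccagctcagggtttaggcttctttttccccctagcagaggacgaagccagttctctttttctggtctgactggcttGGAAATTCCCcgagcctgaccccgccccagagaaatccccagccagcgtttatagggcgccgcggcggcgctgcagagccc
BIRC3: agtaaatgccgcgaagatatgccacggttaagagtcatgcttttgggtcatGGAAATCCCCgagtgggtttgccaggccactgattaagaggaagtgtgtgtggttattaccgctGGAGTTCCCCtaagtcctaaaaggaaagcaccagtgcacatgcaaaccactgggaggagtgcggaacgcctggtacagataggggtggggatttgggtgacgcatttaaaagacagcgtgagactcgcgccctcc
TNFAIP3: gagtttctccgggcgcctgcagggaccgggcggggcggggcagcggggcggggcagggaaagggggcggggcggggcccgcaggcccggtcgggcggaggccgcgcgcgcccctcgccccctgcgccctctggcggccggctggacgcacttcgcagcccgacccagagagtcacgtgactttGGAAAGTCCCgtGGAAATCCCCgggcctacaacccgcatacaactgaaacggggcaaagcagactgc
REL: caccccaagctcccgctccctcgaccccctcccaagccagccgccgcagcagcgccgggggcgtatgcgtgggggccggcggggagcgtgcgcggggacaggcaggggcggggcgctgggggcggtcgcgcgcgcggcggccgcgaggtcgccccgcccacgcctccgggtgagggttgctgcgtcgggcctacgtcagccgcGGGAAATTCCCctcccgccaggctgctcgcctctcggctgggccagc

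These stretches lie at chr14:35404750-35404999 (minus strand) for NFKBIA, chr11:102317234-102317483 (plus) for BIRC3, chr6:137867009-137867258 (plus) for TNFAIP3 and chr2:60881324-60881573 (plus) for REL. The NFKBIA match began at base -81 from the start and was of the stricter form. The BIRC3 matches began at -199 and -135, and neither was of the stricter form. In TNFAIP3, the matches at -67 and -55 were separated by 2 bases, and the first was of the stricter form. In REL, matches at -47 and -46 overlapped on opposite strands, and the latter was of the stricter form. NFKB1 held 1 match, GGGAATTTCC at -49, and the windows of its counterpart NFKB2 held several, including GGGACTTTCC at -21 of its most downstream start. Thus, among the 8 genes with a window, those holding the element included genes that rose, fell or were not called. RELA and TRAF1, which held no match, both fell. Sequence outside the windows was not searched, and a link of the element with direction was not tested.

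In GENCODE release 29 (GRCh38), the 10 genes lie on 8 chromosomes and all are protein coding. The subunit genes are NFKB1 at chr4:102501329-102617302, NFKB2 at chr10:102394110-102402529, RELA at chr11:65653596-65663094, RELB at chr19:45001430-45038198 and REL at chr2:60881521-60931610. The inhibitor genes are NFKBIA at chr14:35401511-35404749 and NFKBIE at chr6:44258166-44265788. The feedback targets are TNFAIP3 at chr6:137867188-137883312, BIRC3 at chr11:102317450-102339403 and TRAF1 at chr9:120902393-120929173. RELA and TNFAIP3 share 0.16% and 1.88% of their exon bases with genes on the opposite strand, and REL shares sequence with another gene on its own strand, as given with its values.

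MUC1, the target of the shRNA, was checked before the other genes. It had 93, 84 and 102 counts in the control libraries and 72, 51 and 34 in the shMUC1 libraries, with no overlap once scaled to counts per 1000000 counts (CPM), and fell by 0.84 on the log2 scale (SE 0.214, adjusted p = 0.00119 by the quasi-likelihood test of edgeR with Benjamini-Hochberg adjustment). Library totals ran from 18678307 to 27825546 counts. Of the defining markers, KRT8 and KRT18 of epithelial cells and VIM of mesenchymal-like cells were abundant, and the hormone receptor genes ESR1 and PGR each stood at no more than 12 counts in any library, whereas ERBB2 was measured at 44.7 ± 2.41 CPM (SD, n = 3) in control and KRT19 at no more than 2 counts.

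With shMUC1, 7 of the 10 genes were lower and 2 were higher at an adjusted p under 0.05 (below, called), and NFKB1 was not called. By comparison, 48.7% of all tested genes were called in either direction, 25.2% higher and 23.6% lower. The median log2 fold change of the 10 genes was -0.55 and that of all tested genes was 5.83e-04. With the study's additional threshold of a fold change over 2, BIRC3 and NFKBIE were lower and none was higher, compared with 3.74% and 2.21% of all tested genes. For 7 of the 10 genes, the highest shMUC1 library was below the lowest control library, and for 2 (NFKB1 and REL) the lowest shMUC1 library was above the highest control library. Such separation was seen in 26.8% (below) and 28.1% (above) of all tested genes. For TNFAIP3, the groups overlapped. In bulk RNA, a lower level from fewer expressing cells and from less RNA per cell cannot be told apart.

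**Figure D1:**
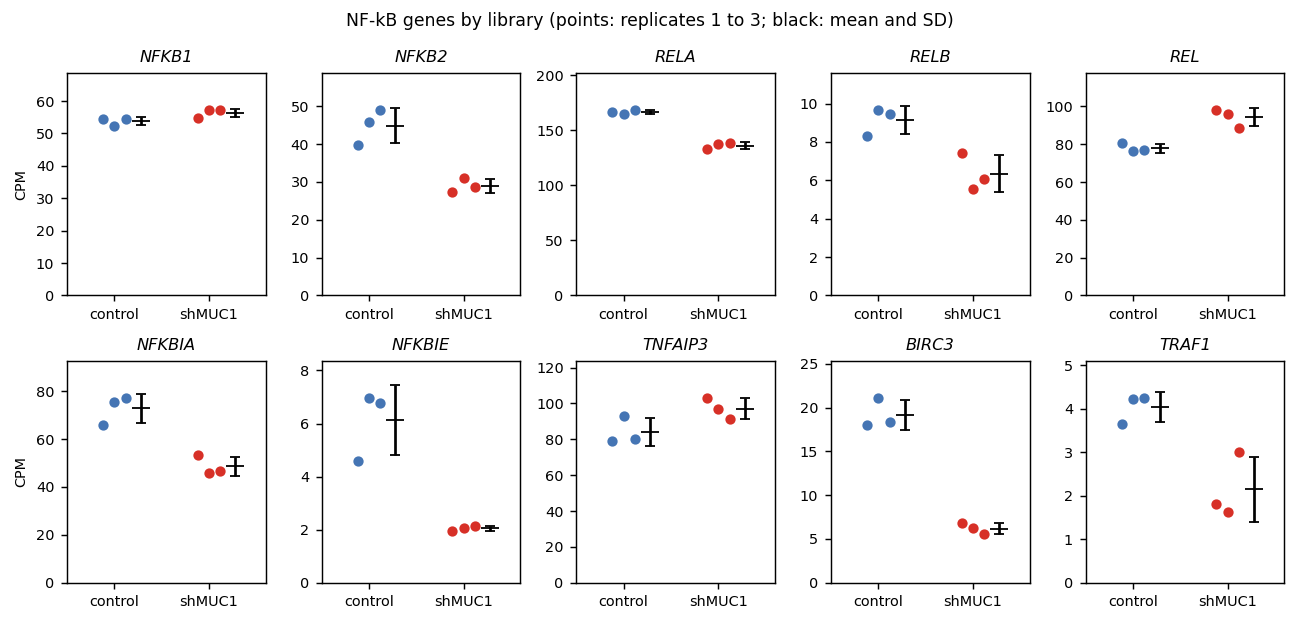
CPM of the 10 genes (vertical axes from 0, 1 panel per gene) in control (blue) and shMUC1 (red) libraries, with points for replicates 1 to 3 and black marks for mean and SD. BIRC3 ran from 18.1 to 21.1 in control and from 5.54 to 6.80 in shMUC1 libraries, while the TNFAIP3 points of both groups overlap.

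RELA encodes p65, the transactivating subunit of the canonical dimer. It was at 167, 165 and 168 CPM in control and 133, 137 and 138 CPM in shMUC1 libraries. The groups were well apart and tight within, and RELA fell by 18.3% (log2 fold change -0.29, SE 0.0374, adjusted p = 2.80e-08). REL encodes c-Rel, another transactivating subunit. It had 80.5, 76.3 and 76.8 CPM in control and 98.0, 95.8 and 88.8 CPM in shMUC1 libraries, and thus moved opposite to RELA. REL rose by 21.3% (log2 fold change 0.28, SE 0.0466, adjusted p = 4.56e-06). In the annotation, 43.3% of the REL exon bases are shared on the same strand with AC010733.2, which was not among the gene symbols counted. How reads from these bases were assigned is not known, so the REL count and the REL levels and shares given below are uncertain.

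NFKB1 encodes p105, the precursor of p50. Its level was 54.5, 52.3 and 54.5 CPM in control and 54.9, 57.2 and 57.1 CPM in shMUC1 libraries. Although every shMUC1 library lay above the controls, the difference was small. NFKB1 was not called (log2 fold change 0.07, approximate 95% interval from -0.04 to 0.17, adjusted p = 0.311). NFKB2 encodes p100, the precursor of p52. It was at 39.8, 45.9 and 48.9 CPM in control and 27.4, 31.1 and 28.7 CPM in shMUC1 libraries. The groups did not overlap and NFKB2 fell by 35.4% (log2 fold change -0.63, SE 0.0723, adjusted p = 2.61e-09). RELB, the partner of p52, was measured at 8.30, 9.65 and 9.45 CPM in control and at 7.42, 5.55 and 6.07 CPM in shMUC1 libraries. RELB, the least abundant subunit, fell by 30.3% (log2 fold change -0.52, SE 0.134, adjusted p = 0.00139), with shMUC1 replicate 1 closest to the controls. Both genes of the non-canonical dimer were therefore lower, and NFKB1, the counterpart of NFKB2, was not called.

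NFKBIA encodes IκBα, the inhibitor that NF-κB re-synthesizes after activation. Its transcript was at 65.9, 75.4 and 77.3 CPM in control and 53.2, 45.8 and 46.7 CPM in shMUC1 libraries. Control replicate 1 was the lowest control, yet it stayed above every shMUC1 library, and NFKBIA fell by 33.3% (log2 fold change -0.58, SE 0.0604, adjusted p = 2.37e-10). NFKBIE encodes IκBε. It had 4.61, 6.98 and 6.78 CPM in control and 1.95, 2.06 and 2.15 CPM in shMUC1 libraries. The shMUC1 libraries were close together and the controls were not, again with replicate 1 lowest. NFKBIE fell by 66.6% (log2 fold change -1.58, SE 0.193, adjusted p = 1.04e-08), on 101 to 175 counts per control library and 40 to 54 per shMUC1 library.

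TNFAIP3 encodes A20, which removes activating ubiquitin chains upstream of IκB kinase. It was at 78.8, 93.2 and 80.0 CPM in control and 103, 96.8 and 91.4 CPM in shMUC1 libraries. Control replicate 2 lay above shMUC1 replicate 3, so the groups overlapped. The fit called a rise of 15.8% (log2 fold change 0.21, SE 0.0528, adjusted p = 9.81e-04). BIRC3 encodes cIAP2, a ubiquitin ligase of TNF receptor complexes that also acts on NIK. It was at 18.1, 21.1 and 18.3 CPM in control and 6.80, 6.21 and 5.54 CPM in shMUC1 libraries. BIRC3 fell by 67.5% (log2 fold change -1.62, SE 0.113, adjusted p = 7.91e-15), the largest change of the 10 genes, and ranked 273 of 15355 tested genes by absolute log2 fold change. TRAF1, an adaptor that binds cIAP proteins, was at 3.65, 4.23 and 4.26 CPM in control and 1.81, 1.63 and 3.01 CPM in shMUC1 libraries. By mean CPM, it was the least abundant of the 10 genes in control, whereas NFKBIE was slightly lower in shMUC1 libraries (2.05 against 2.15 CPM). TRAF1 had 42 to 110 counts per library, and shMUC1 replicate 3 stood between the remaining shMUC1 libraries and the controls. TRAF1 fell by 48.2% (log2 fold change -0.95, SE 0.224, adjusted p = 5.55e-04). Accordingly, the 3 feedback targets did not move together, since BIRC3 and TRAF1 fell and TNFAIP3 rose.

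**Figure D2:**
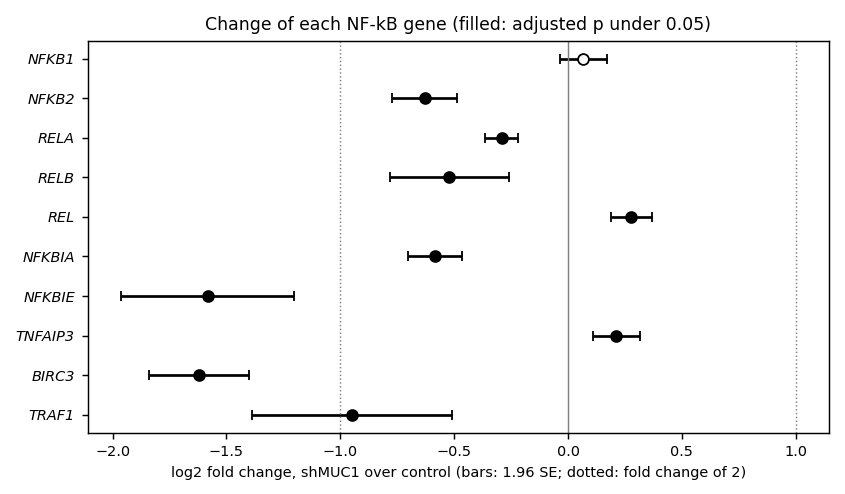
Log2 fold change of each of the 10 genes, shMUC1 over control, with bars for the 95% interval and filled points for an adjusted p under 0.05. Dotted lines mark a fold change of 2, which BIRC3 (-1.62) and NFKBIE (-1.58) passed, while REL (0.28) and TNFAIP3 (0.21) lie to the right of 0.

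Levels were then compared between genes per kilobase of exon (CPM per kb), since longer transcripts give more counts. In control cells, NFKBIA (30.7 ± 2.57, SD, n = 3) and RELA (30.5 ± 0.342) overlapped at the top, followed by TNFAIP3 (16.6 ± 1.58), NFKB2 (10.01 ± 1.04), NFKB1 (8.60 ± 0.200) and REL (5.91 ± 0.172). RELB (3.01 ± 0.239), BIRC3 (2.55 ± 0.228) and NFKBIE (2.37 ± 0.509) overlapped with their neighbours, and TRAF1 was lowest at 0.627 ± 0.0533. In shMUC1 cells, RELA (24.9 ± 0.517) stood alone at the top. NFKBIA (20.5 ± 1.69) overlapped with TNFAIP3 (19.2 ± 1.18), and NFKB1 (9.01 ± 0.207) stood above REL (7.15 ± 0.364) and NFKB2 (6.48 ± 0.412), which overlapped. RELB (2.09 ± 0.317) came next, BIRC3 (0.823 ± 0.0844) and NFKBIE (0.796 ± 0.0379) overlapped, and TRAF1 (0.333 ± 0.116) was again lowest. NFKB2 thus ranked above NFKB1 in control libraries and below both NFKB1 and REL, by mean, in shMUC1 libraries. This order between genes depends on the exon length used. By mean CPM without length, NFKB2 was already below NFKB1 in control (44.9 against 53.8). RELA was then above NFKBIA in control (167 against 72.9 CPM).

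The make-up of the subunit pool was described as the share of each subunit in the summed CPM per kb of the 5 subunits. This sum was 57.0 to 59.4 in control and 49.1 to 50.3 in shMUC1 libraries. RELA made up 52.6% ± 0.937 (SD, n = 3) of the pool in control and 50.2% ± 0.761 in shMUC1 cells. The share of REL was 10.2% ± 0.468 in control and 14.4% ± 0.772 in shMUC1 cells, and that of NFKB1 was 14.8% ± 0.413 and 18.2% ± 0.281. NFKB2 went the other way, from 17.2% ± 1.48 to 13.0% ± 0.667. RELB contributed 5.18% ± 0.359 and 4.22% ± 0.689, and its groups overlapped. With 3 libraries against 3, an exact two-sided permutation test cannot go below p = 0.1, which the shares of NFKB1, NFKB2, RELA and REL reached (adjusted p = 0.125 over the 5 subunits), and RELB gave p = 0.2 (exact test, adjusted p = 0.2). Without the length correction, the RELA share differed between groups by -5.03 instead of -2.38 percentage points, that of REL by 7.13 instead of 4.21 and that of RELB by -0.62 instead of -0.97 (exact permutation p = 0.1 for RELB).

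Ratios within a library do not depend on its scaling. The NFKB2 to NFKB1 ratio per kb was 1.02, 1.22 and 1.25 in control and 0.697, 0.758 and 0.700 in shMUC1 libraries. These groups were apart, with a log2 difference of -0.69 (exact permutation p = 0.1, the smallest that 3 against 3 allows). The NFKBIA to RELA ratio, an inhibitor against the subunit it holds, was 0.909, 1.05 and 1.06 in control and 0.921, 0.768 and 0.778 in shMUC1 libraries. Here control replicate 1 and shMUC1 replicate 1 were nearly equal, so the groups overlapped (log2 difference -0.29, exact permutation p = 0.2).

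**Figure D3:**
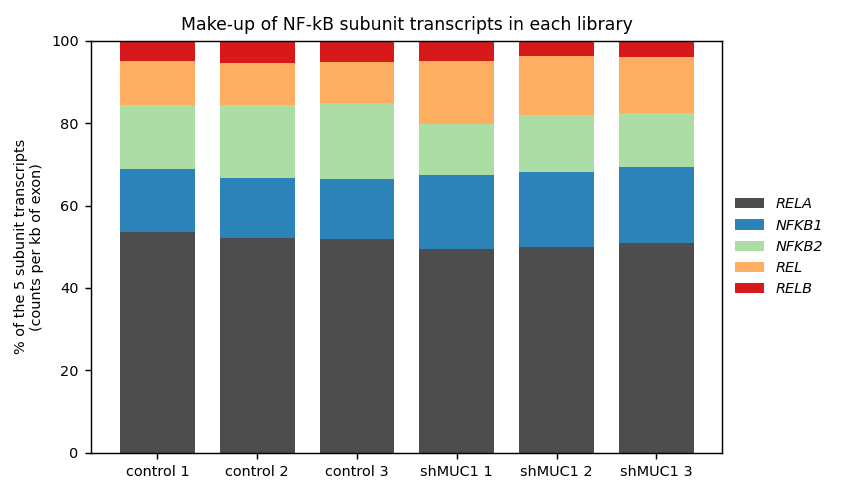
Share of each subunit (percent of the summed CPM per kb of exon of the 5 subunits, vertical axis) in each of the 6 libraries, as stacked bars. RELA makes up the largest part of every bar, and the NFKB2 part narrows from a mean of 17.2% in control to 13.0% in shMUC1 libraries as the REL part widens from 10.2% to 14.4%.

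The other genes of the pathway were grouped by role. Of 91 genes in 7 lists, 77 were tested, of which 23 were higher, 18 were lower and 36 were not called. These counts lie near the background of 25.2% higher and 23.6% lower among all tested genes, against which the counts per list that follow are to be read. Their median log2 fold change was -0.04, and without control replicate 2 it was 0.03, so no direction is read from it.

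Upstream of the subunits, the kinase list had 3 of 11 genes higher and 3 lower (median -0.07). MAP3K14, which encodes NIK, fell from 23.0 ± 0.309 to 14.0 ± 1.58 CPM (SD, n = 3 per group), a log2 fold change of -0.71 (adjusted p = 3.44e-08). MAP3K7, which encodes TAK1 of the canonical arm, fell by a like amount (83.4 ± 5.36 to 51.2 ± 2.53 CPM, log2 fold change -0.71, adjusted p = 8.39e-14). For the IκB kinase subunits, IKBKB fell by 0.25 and CHUK rose by 0.14 on the log2 scale, with an adjusted p of 0.0204 and 0.0388. The remaining subunit gene, IKBKG, was not called (log2 fold change -0.34, adjusted p = 0.0812), although its shMUC1 libraries all lay below the controls. The IKBKB call was lost in 3 of 15 alternatives (DESeq2, and without control replicate 2 or shMUC1 replicate 1, both at -0.22). The CHUK call was lost in 7 of 15, including DESeq2 and the fits without control replicate 1 (0.11), control replicate 3 (0.13), shMUC1 replicate 1 (0.15) or shMUC1 replicate 2 (0.09), and the CHUK groups overlapped. TBK1 and TAB3 rose by 0.26 and 0.23 on the same scale. Among adaptors and ubiquitin ligases, 4 of 15 were higher and 4 were lower (median -0.02). TRAF5, TRAF3 and TRAF2, which couple TNF family receptors to the pathway, fell by 0.97, 0.58 and 0.23 on the log2 scale, and the TRAF2 groups overlapped. The TRAF2 call was lost in 5 of 15 alternatives, namely DESeq2 and the fits without control replicate 1 (-0.17), control replicate 3 (-0.23), shMUC1 replicate 1 (-0.17) or shMUC1 replicate 3 (-0.20). Of the Toll-like and IL1 receptor routes, TRAF6, IRAK4 and MYD88 rose by 0.33, 0.69 and 0.24 on the log2 scale, IRAK1, the most abundant gene of the list in CPM, fell by 0.20, and TIRAP was not called. SHARPIN of the linear ubiquitin ligase rose by 0.24 on that scale. IKBKG, IRAK1, MYD88 and TIRAP were named after their values were seen.

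Of 13 receptors, 10 were tested, and 3 were higher and 1 was lower (median 0.16). TNFRSF10A, a TRAIL receptor, rose by 0.51 on the log2 scale, and IL1R1 and IL1RAP, which form the IL1 receptor, rose by 0.30 and 0.23. The IL1RAP call was lost without shMUC1 replicate 2 (0.16). TNFRSF12A fell by 0.20 on that scale at an adjusted p of 0.0493, and its call was lost in 7 of 15 alternatives, including DESeq2, limma-voom and the fits without control replicate 1 (-0.23), control replicate 3 (-0.16), shMUC1 replicate 2 (-0.18) or shMUC1 replicate 3 (-0.13). Of 9 ligands, 3 were tested. TNF, LTA, LTB, CD40LG and TNFSF11 gave no read in any of the 6 libraries (0 counts). At the lowest depth, a count of 0 allows a level of up to 0.161 CPM by counting error alone. This limit would be higher if both reads of each pair were counted. IL1B, an inflammatory cytokine, fell from 21.9 ± 0.813 to 12.8 ± 1.01 CPM (log2 fold change -0.77, adjusted p = 6.12e-09), and IL1A and TNFSF12 were not called.

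In the list of other IκB proteins and cofactors, 4 of 7 were higher and 1 was lower (median 0.25). BCL3, a nuclear IκB family member that binds p50 and p52, rose from 18.3 ± 1.45 to 31.1 ± 0.745 CPM (SD, n = 3 per group, log2 fold change 0.76, adjusted p = 2.51e-10). NFKBIB, which encodes IκBβ, rose by 0.36 on the log2 scale and NKIRAS2 by 0.28, while NKIRAS1 fell by 0.40. NFKBIZ (-0.16) and NFKBID (-0.07), also named after their values were seen, were not called. The negative regulators had 4 of 10 genes higher and 0 lower (median 0.04), and 1 was lower with library totals only, at a minimum mean of 50 counts or without control replicate 3. Of these, ZC3H12A, an RNase that degrades inflammatory transcripts, rose by 0.78 on the log2 scale, and TNIP1 and RNF11, which work with A20, rose by 0.27 and 0.24. The TNIP1 call was lost without control replicate 2 (0.20) or shMUC1 replicate 1 (0.21). Of other partners of A20, TAX1BP1 (-0.04) and TNIP2 (-0.06) were not called, and ITCH was called higher by 0.21 on the log2 scale. TAX1BP1, TNIP2 and ITCH were named after their values were seen.

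Among 26 inducible targets, 21 were tested, and 5 were higher and 8 were lower (median -0.17). OLR1, a receptor for oxidized LDL, rose from 67.7 ± 3.55 to 193 ± 5.73 CPM (SD, n = 3 per group), a log2 fold change of 1.51 (adjusted p = 1.95e-26). SDC4 and LIF rose by 0.51 and 0.17 on the log2 scale. The LIF groups overlapped, and its call (adjusted p = 0.0405) was lost in 6 of 15 alternatives, including DESeq2 and the fits without control replicate 1 (0.18), control replicate 3 (0.09) or shMUC1 replicate 1 (0.10). PLAU, which encodes urokinase, fell from 219.8 ± 1.243 to 107 ± 5.15 CPM (log2 fold change -1.03, adjusted p = 1.38e-22), CXCL8 from 4.30 ± 0.360 to 1.62 ± 0.394 CPM (log2 fold change -1.39, adjusted p = 2.05e-06) and CD83 fell by 0.67 on the log2 scale. The chemokine genes CCL20 (log2 fold change 1.33) and CXCL1 (-1.50) also passed a fold change over 2. Both were at low counts, from 6 to 44 per library, and were named after their values were seen. The CCL20 call was lost without shMUC1 replicate 1 (1.07). Only 13 of 15 alternatives gave an adjusted p for CCL20, and 14 gave one for CXCL1.

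**Figure D4:**
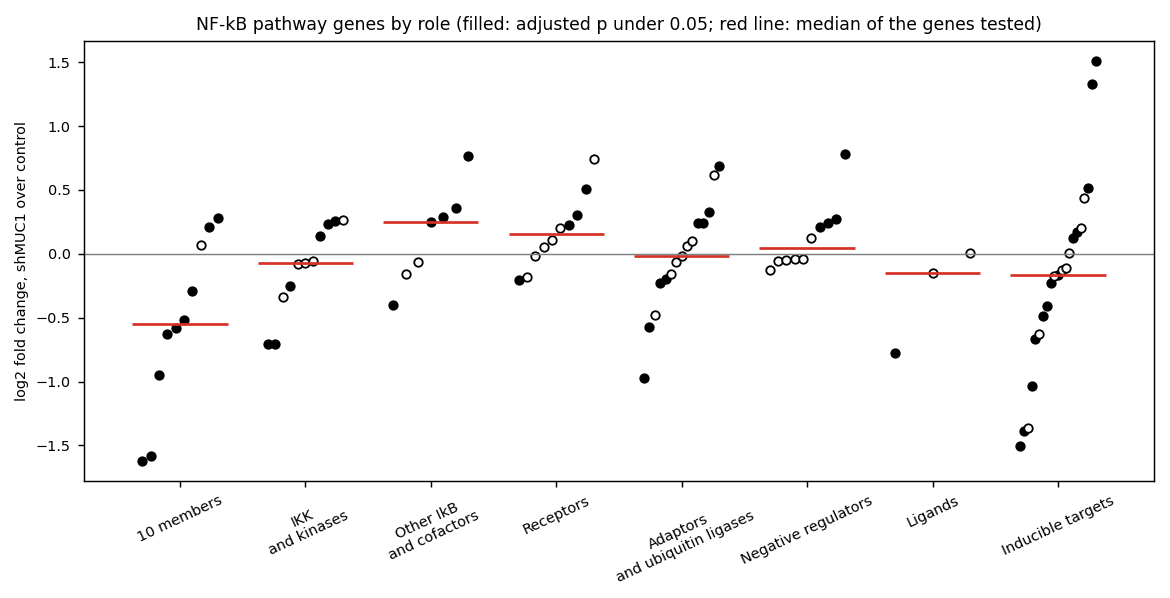
Log2 fold change, shMUC1 over control (vertical axis), of each tested gene of the 10-gene list and of 7 other lists of NF-κB pathway genes, with filled points for an adjusted p under 0.05 and a red line at the median. The median of the 10 genes is -0.55, whereas the medians of the other lists lie between -0.17 and 0.25.

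Other transcripts changed alongside these genes. The epithelial markers KRT8, KRT18 and KRT19 summed to 536 to 571 CPM in control and 1071 to 1112 CPM in shMUC1 libraries. KRT8 and KRT18 rose by 0.95 and 1.02 on the log2 scale. Of the mesenchymal markers, VIM and ZEB1 fell by 0.78 and 0.97 and FN1 rose by 0.42 on that scale, with sums of 1699 to 1724 and 1701 to 1736 CPM. The 7 leukocyte markers, examined because leukocytes are rich in several of the 10 genes, summed to 3.37 to 3.60 CPM in control and 5.97 to 9.24 CPM in shMUC1 libraries. Most of that was CD14 (2.99 ± 0.223 and 6.28 ± 1.33 CPM, SD, n = 3), and PTPRC rose from 0.242 ± 0.148 to 0.743 ± 0.198 CPM, whereas CD3E and MS4A1 had 0 counts in all 6 libraries. The part of these shifts in the NF-κB results was not tested.

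The 3′ untranslated regions (3′ UTRs) of the 10 genes were also searched for a 7-base word, ATCAGTA, which had been picked from earlier results of these libraries. None of the 10 held it, compared with 14.4% of 13032 tested genes with an annotated 3′ UTR. With 10 genes, this count is a description.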

How the data were processed

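RNA-seq libraries of polyadenylated RNA (TruSeq Stranded mRNA) from cells cultured in triplicate were analysed. Raw counts for each gene symbol were deposited by the authors, with 1 column per library. Per the labels, their processing named CASAVA 1.8.2, STAR 2.7.9a, featureCounts, DESeq2 1.24.0 and the build GRCh38.p7, and the strand setting and annotation release were not given in the sources used here. Of values from 1 to 20, 68.8% to 70.5% were even, as if each read pair had been counted as 2 reads, so halved counts were tried.

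Counts were tested with edgeR 4.0.16 in R 4.3.3 (quasi-likelihood, TMM scaling, filterByExpr, group as the only term, two-sided, Benjamini-Hochberg adjustment over 15355 genes). CPM used TMM-scaled totals. Libraries of the same group gave a chi-square over degrees of freedom of 2.67 to 5.13, against 32.6 to 45.4 between groups. If both reads of each pair were counted, sampling noise alone would give higher values than with single counting. How far libraries of the same group differed beyond sampling noise is therefore uncertain. All 6 libraries were counted separately. P-values measure only the spread between these libraries, which may be technical. Each SE was derived from the log2 fold change and the F statistic of the same fit. Intervals are 1.96 SE to each side and reflect the same spread. They are approximate and can be narrower than the p-values of the fit imply. Floors (3 counts for a gene at 0) cover counting error only. Exon lengths and overlaps came from GENCODE release 29 (GRCh38). The script was tested on simulated data. Protein sequences were not analysed here.

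The 10 genes and the lists were chosen with earlier results of these data known. Beside the 10 genes, up to 3 higher and 3 lower genes per list were named, by absolute log2 fold change among those called whose mean was 1 CPM or more. Alternatives were DESeq2 1.42.0, limma-voom (limma 3.58.1), other scalings and filters, halved counts, library sizes without mitochondrially encoded genes, a replicate block and each library left out in turn.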

Additional observations from a re-analysis of the deposited data

How the results depend on the processing

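Each of the 10 genes, and MUC1, kept its direction and its side of the threshold under all 15 alternatives that were fitted, and leaving out any library gave 2 of the 10 higher and 7 lower. The BIRC3 log2 fold change ran from -1.70 to -1.54, that of TRAF1 from -1.23 to -0.78, that of TNFAIP3 from 0.16 to 0.29 and that of NFKB1 from 0.04 to 0.09. A fold change over 2 as a further condition left 0 of the 10 higher and 2 lower. The median of the pathway lists was -0.0607 with library totals only and -0.0613 at a minimum mean of 50 counts, and it ran from -0.0254 to 0.0271 when libraries were left out in turn, with 0.0271 without control replicate 2 and 0.00834 without shMUC1 replicate 2. The cause was not tested. Replicate numbers did not pair the libraries (correlations of 0.00644, -0.0320 and -0.0378 for replicates 1, 2 and 3). With a replicate block, 2 of the 10 genes were higher and 7 lower, 24 pathway genes were higher and 18 lower, and 3885 of all genes were higher and 3591 lower. Over all alternatives, 3419 to 3942 genes were higher and 3107 to 3908 lower. Of the 41 pathway genes called, 8 lost the call in at least 1 alternative (CHUK, IKBKB, TNFRSF12A, IL1RAP, TRAF2, TNIP1, CCL20 and LIF). CCL20 and CXCL1 had an adjusted p in only 13 and 14 of the 15 alternatives. Subunit shares kept their direction, though not their size, with the longest transcript as length, without length correction and without each library. Depth limits TRAF1 and NFKBIE, with 40 to 175 counts per library, and the ligands at 0 counts.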

Other observations

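Genes of the non-canonical arm were viewed together after their values were seen, so the grouping is no test. NFKB2, RELB, MAP3K14, TRAF3, TRAF2 and BIRC3 were each called lower with shMUC1, with log2 fold changes of -0.63, -0.52, -0.71, -0.58, -0.23 and -1.62. The TRAF2 call was lost in 5 of 15 alternatives. By comparison, 23.6% of all tested genes were called lower. In the same arm, CHUK, the kinase that NIK activates, was called higher by 0.14 (a call lost in 7 of 15 alternatives), and BIRC2 (72.9 ± 3.75 and 72.2 ± 1.88 CPM, SD, n = 3) and the receptor gene LTBR (115 ± 3.49 and 113 ± 1.06 CPM) were not called. The receptor genes CD40 (log2 fold change 0.74, 12 to 38 counts per library) and TNFRSF11A (0.21) were not called either. Nor was the ligand gene TNFSF12 (-0.15). TNFRSF12A was called lower by 0.20 (a call lost in 7 of 15 alternatives). TRAF3 and cIAP2 are known to hold NIK protein at a low level, and protein was not measured here.

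Control replicate 1 was the lowest control library for 7 of the 10 genes and for 32.7% of all tested genes. Without it, the NFKBIA to RELA log2 ratio difference was -0.37.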
